A study of Canis lupus with 23 samples.

Results

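Carcinomas, tumors of epithelial origin, were compared with mesenchymal tumors in dogs, using 16 of the 23 tumors of the series. The members were chosen by sample title and by the broad histologic category that the study gives each tumor type, with no measured value used. The 5 carcinomas were 3 transitional cell carcinomas of the bladder (TCC), 1 hepatocellular carcinoma (HCC) and 1 tumor titled as nasal tumor, which the study counts among its carcinomas. The 11 mesenchymal tumors were 5 melanomas, 4 sarcomas (2 titled as STS, soft tissue sarcoma, and 2 as sarcoma), 1 hemangiosarcoma (titled HSA) and 1 histiocytic sarcoma. The other 7 tumors of the series were lymphomas, its round cell category; they were not compared with either group and entered the fit in 1 alternative alone, which took all 23 tumors. Each tumor was a spontaneous tumor of a privately owned dog, biopsied once and read on 1 array, so the spread between replicates is a spread between dogs. The labels name no genotype or treatment. By the study's methods the TCC cohort was restricted to Scottish terriers and the melanoma cohort took oral melanomas of any breed, so for the TCC breed and site, and for the melanomas site, cannot be told apart from type. Melanoma was kept in the mesenchymal category as the study has it, although pigment cells descend from the neural crest. HCC, nasal carcinoma, hemangiosarcoma and histiocytic sarcoma had 1 tumor each and no replicate of their own type.

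Epithelial cells hold to each other through tight junctions, adherens junctions and desmosomes, carry keratin filaments, and sort proteins to an apical and a basal surface. Mesenchymal cells lack most of these structures, build collagen-rich matrix, and fill their cytoskeleton with vimentin. Transcription factors of the grainyhead-like and ETS families and the ESRP splicing regulators act on the epithelial side, and ZEB and PRRX factors, which repress epithelial genes or mark connective tissue, act on the mesenchymal side.

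Of 49 annotated cell junction genes 33 were tested and 15 were called higher. Of the 15, 14 were higher in all 3 carcinoma types, by up to 7.07 on the log2 scale (EPCAM). Over all genes tested, 3.64% were called higher and 1.35% were called higher and shared by the 3 types. Of the 15 junction genes, 6 exceeded the level needed for testing in fewer than 3 mesenchymal tumors, which favors a positive difference. The simple epithelial keratins KRT8 and KRT18 were also higher in all 3 types, and vimentin and the repressor ZEB2 were lower in all of them. Many other epithelial genes, among them most of the epithelial transcription factors called, were higher in TCC and, for several, in the nasal carcinoma, but not in the HCC. Lower genes included matrix proteins and actin-binding proteins, and a group led by the melanomas. Of 28 matrix genes 7 were called lower, and their collagen calls were lost when some single tumors were left out. Levels are given as log2(signal + 16), averaged over the probesets of a gene, on which a signal near 0 gives a level near 4, so differences of dim genes are understated. In bulk tumor RNA, fewer cells of a type and less RNA per cell cannot be told apart.

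The arrays were of similar brightness, with a median signal of 82.1 to 107.0 in the carcinomas and 87.4 to 132.4 in the mesenchymal tumors. For 3 dog housekeeping genes, the 3' control probesets over the 5' ones gave a log2 ratio, higher in degraded RNA, of 6.66 to 8.65 in the carcinomas and 6.58 to 8.34 in the mesenchymal tumors (means 7.54 and 7.3, exact permutation test, two-sided, p = 0.505). The HCC stood apart from the other arrays: its mean correlation with the other 15 was 0.65, against 0.74 to 0.798 for the rest. It also had the largest share of probesets below a signal of 16, 27.2% against 19.8% to 23.9%.

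The labels were checked against marker genes. UPK1A, a uroplakin of the bladder surface, was at 12.56, 11.29 and 11.48 in the TCC, 4.93 in the nasal carcinoma, 5.24 in the HCC and at most 6.6 in the mesenchymal tumors. FGA, a fibrinogen chain made by hepatocytes, was at 14.65 in the HCC and at most 5.73 in every other tumor compared, and ALB was at 10.68 against at most 5.61. TTR, transthyretin, was at 15.86 in the HCC but also at 10.62 in the nasal carcinoma, and SERPINA1 was at 16.27 in the HCC and at 10.52 in the histiocytic sarcoma. SCGB1A1, a secretory protein of airway club cells, was at 14 in the nasal carcinoma and at most 6.94 elsewhere, while the ciliated cell factor FOXJ1 was at 5.65 there, within the 4.18 to 6.81 of the other tumors. DCT, a melanin synthesis enzyme, was at 13.76 to 15.33 in the 5 melanomas and at most 6.16 elsewhere. The melanocyte genes PMEL, MLANA and TYR were also higher in all 5 melanomas than elsewhere, but SOX10 and TYRP1 were not. SOX10 was at 6.94 in Melanoma 2 against 7.17 in Sarcoma 0, and TYRP1 at 5.07 in Melanoma 0 against 6.28 in the HCC. KDR, a VEGF receptor of vessel-lining cells, was at 13.49 in the hemangiosarcoma and at most 11.11 elsewhere. The histiocyte markers did not all single out the histiocytic sarcoma. CD68 was highest there, at 9.68 against at most 8.32 elsewhere. CSF1R, the receptor of macrophages for their growth factor, was also highest there at 12.35, with the hemangiosarcoma close to it at 11.84. AIF1 was higher in the hemangiosarcoma and the nasal carcinoma (13.88 and 13.35 against 13.04), and C1QA in the hemangiosarcoma (13.38 against 12.66). CD14 was higher in the HCC, Melanoma 4 and Sarcoma 0 (13.6, 11.72 and 11.57 against 11.45). COL1A1 was at 12.59 to 14.83 in the 4 sarcomas and at 9.61 to 15.17 over all mesenchymal tumors.

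Of 9412 genes tested with limma (two-sided, adjusted for all genes tested), 343 were called higher in carcinomas and 312 lower, with the adjusted p below 0.05 and a log2 difference of 1 or more. These are 3.64% and 3.31% of the genes, and the median log2 difference over all genes was -0.06. A called gene was counted as shared by the carcinoma types when the TCC mean, the nasal carcinoma and the HCC each lay at least 1 log2 unit beyond the mesenchymal mean on the same side. By that count 127 of the genes called higher (1.35% of those tested) and 178 of those called lower (1.89%) were shared. The TCC mean lay at least 1 beyond the mesenchymal mean in 317 of the 343 higher genes, the nasal carcinoma in 227 and the HCC in 221. Without the 3 TCC, with 2 carcinomas left, 83 genes were called higher and 89 lower, and without the 5 melanomas 189 were higher and 198 lower. Leaving out the single tumor TCC 0 brought the genes called higher to 205 and those called lower to 196, and leaving out TCC 1 brought those called lower to 183.

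**Figure D1:**
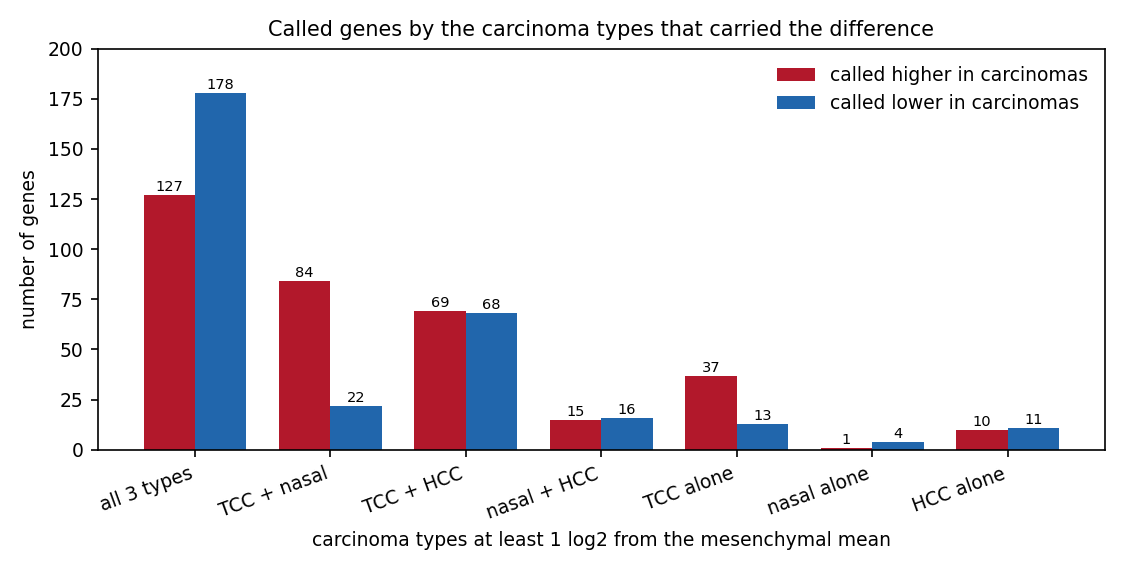
Number of called genes (vertical axis) by the carcinoma types whose level lay at least 1 log2 unit beyond the mesenchymal mean, for genes called higher (red) and lower (blue) in the 5 carcinomas. The tallest bars are the genes shared by all 3 types, 127 higher and 178 lower; of those higher in only a pair of types, 84 were shared by TCC and the nasal carcinoma and 69 by TCC and the HCC.

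Complete separation, with every carcinoma above every mesenchymal tumor, was found in 109 of all 9412 genes (1.16%), and 68 of the 127 shared higher genes were among them. The reverse was found in 73 genes (0.776%), and 51 of the 178 shared lower genes were among them. The 20 shared higher genes with the largest value of their smallest type difference are described first. This ranking uses the differences themselves, so their sizes, their separation between the groups and how well their calls held are descriptions. In 17 of the 20 the carcinomas and the mesenchymal tumors did not overlap, and all 20 kept their call when any single tumor was left out.

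KRT18, the type I keratin of simple epithelia, was at 12.87, 13.9 and 13.27 in the TCC and 13.15 in the nasal carcinoma, with the HCC at 13.49. In the mesenchymal tumors it ran from 4.53 through a median of 5.97 to 9.19, the highest being the hemangiosarcoma. The groups did not overlap, and the difference was 6.98 ± 0.6 (SE; limma, adjusted p = 2.58e-06). Its type II partner KRT8 was at 12.18, 13.09 and 12.63 in the TCC and 13.09 in the nasal carcinoma, with the HCC at 11.99, against 4.15 to 7.63 (median 5.92) in the mesenchymal tumors. KRT8 differed by 6.77 ± 0.54 (limma, adjusted p = 1.43e-06), again with no overlap. The TCC mean, the nasal carcinoma and the HCC lay 6.8, 7.26 and 6.16 above the mesenchymal mean of KRT8.

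EPCAM, an adhesion molecule of most simple epithelia, was at 13.76, 14.27 and 13.58 in the TCC and 13.08 in the nasal carcinoma, with the HCC at 12.17. The mesenchymal tumors had a median of 5.61 and ran from 4.25 to 9.82, with Sarcoma 0 the highest. The difference was 7.07 ± 0.78 (limma, adjusted p = 2.92e-05) and the groups did not overlap. PIGR, which carries polymeric immunoglobulins across epithelia into secretions, was at 12.53, 12.18 and 11.83 in the TCC and 10.25 in the nasal carcinoma, with the HCC at 10.09. All 11 mesenchymal tumors lay between 5.02 and 5.68, so PIGR had the narrowest mesenchymal range of the 20 genes described here, and the difference was 6.0 ± 0.35 (adjusted p = 1.29e-08). The 7 probesets of PIGR differed in size but not in sign, from 1.36 to 8.56.

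PDZK1IP1, a small membrane protein that binds PDZ scaffolds, was at 13.61, 13.34 and 12.9 in the TCC, 12.73 in the HCC and lower, 10.86, in the nasal carcinoma, against 4.19 to 8.41 (median 5.54) in the mesenchymal tumors. CP, ceruloplasmin, a copper-carrying ferroxidase secreted by liver, was highest in the HCC, at 14.64, but was also at 13.08, 13.53 and 11.32 in the TCC and 10.94 in the nasal carcinoma. The groups overlapped for CP, as the hemangiosarcoma was at 12.41 while the other 10 mesenchymal tumors lay between 4.23 and 9.38; the difference was 5.89 ± 0.99 (limma, adjusted p = 0.00178). ELOVL6, which lengthens long-chain fatty acids, was at 9.66 to 10.93 in the 5 carcinomas and 4.16 to 8.61 in the mesenchymal tumors, a difference of 3.83 ± 0.63 (adjusted p = 0.00149). RASSF6, of the RAS association domain family, showed the nasal carcinoma below the other carcinomas, at 7.28 against 9.76 to 10.34, with the mesenchymal tumors at 4.22 to 6.08.

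Of the rest of the 20, CAMSAP3, which anchors the minus ends of microtubules in polarized cells, was at 8.64, 9.08 and 8.83 in the TCC and 7.91 in the nasal carcinoma, with the HCC at 7.5, against 4.18 to 7.02. EPB41L5, a FERM domain protein of the membrane cortex, was at 9.1 to 10.83 in the carcinomas and 4.18 to 7.83 in the mesenchymal tumors. These groups did not overlap, and neither did those of TC2N, LURAP1L and C15H1orf210, with differences of 4.4, 3.32 and 3.23. LURAP1L was at 9.37 to 10.95 in the carcinomas and at 7.29 or below in every mesenchymal tumor, a difference of 3.32 ± 0.3 (limma, adjusted p = 2.79e-06). Over all 127 shared higher genes the differences ran from 1.12 to 7.07 with a median of 2.31, and the median differences of the TCC, the nasal carcinoma and the HCC were 2.28, 1.96 and 2.21. The carcinoma mean lay at least 1 above both the melanoma mean and the mean of the other 6 mesenchymal tumors in 124 of the 127.

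**Figure D2:**
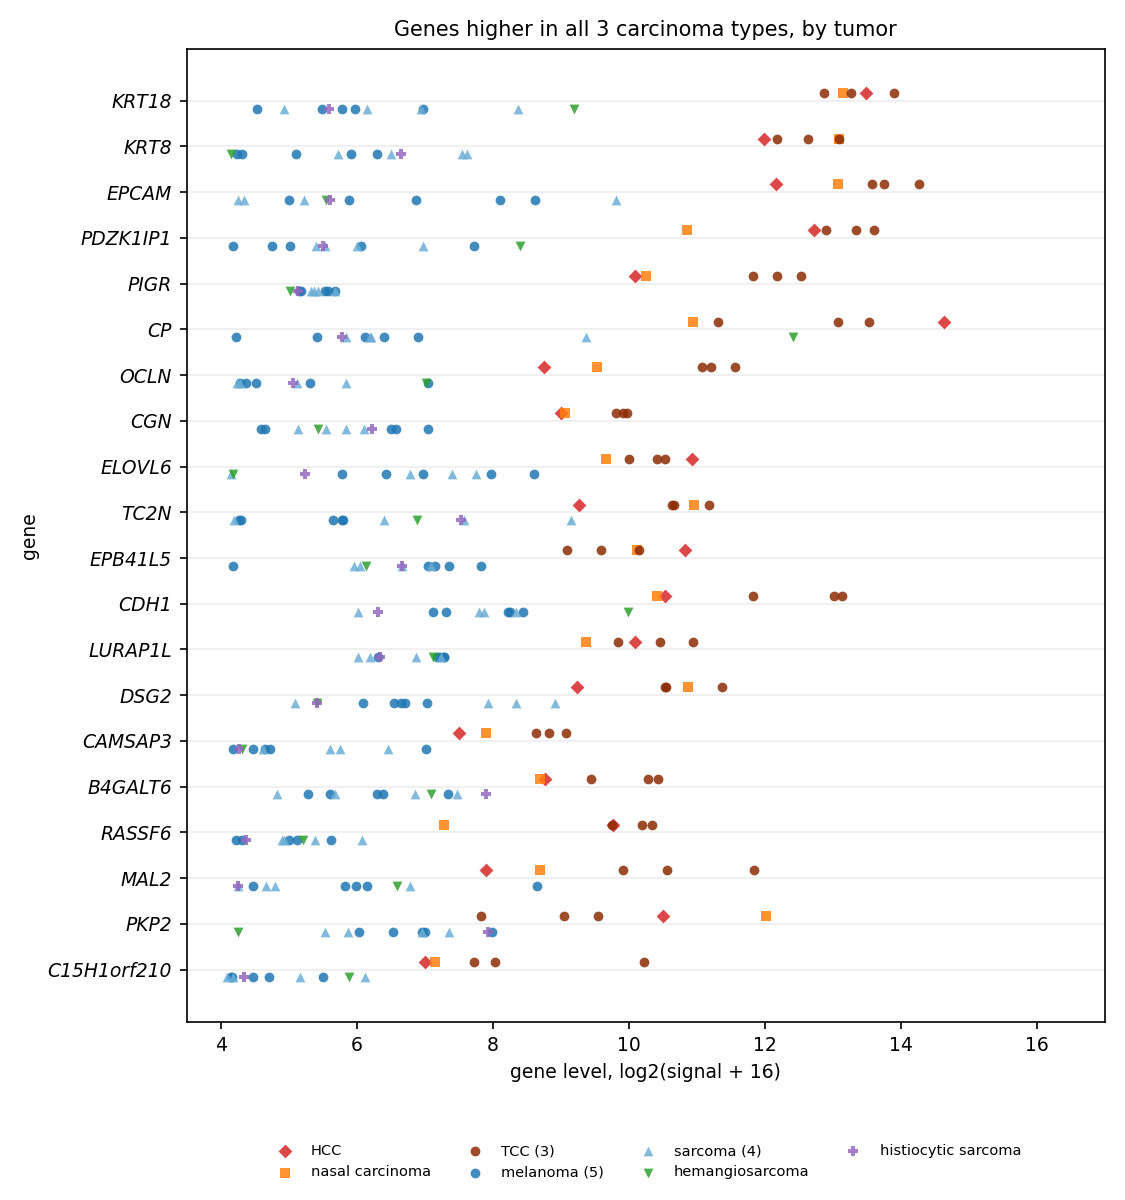
Level of each of the 20 shared higher genes (rows) in each of the 16 tumors, as log2(signal + 16) on the horizontal axis; the upper points of a row are the 5 carcinomas and the lower points the 11 mesenchymal tumors, by type. In KRT18 all carcinomas lie between 12.87 and 13.9, and in PIGR all mesenchymal tumors lie between 5.02 and 5.68; CP, MAL2 and PKP2 are the 3 rows in which the groups overlap.

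The gene lists were all chosen with earlier results of these data known. A gene was tested if at least 3 of the 16 arrays exceeded 7.05, so it could pass through the carcinomas alone, which favors a positive difference. Of the 156 genes of the 13 epithelial lists that were tested, 59 exceeded that level in fewer than 3 mesenchymal tumors and 36 of the 62 called higher were among them, against 618 of all 9412 genes and 126 of the 343 called higher. Counts and mean levels over the tested genes of a list are therefore descriptions, and list medians are given over every annotated gene of a list with the filter off, beside -0.05 over all 15115 genes. List counts stand beside the 3.64% of all tested genes called higher and the 3.31% called lower. A single call in a list describes that gene and not the list.

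The junction genes were taken as 3 lists. Of 21 tight junction genes annotated 13 were tested, of which 7 were called higher and none lower, against 3.64% of all genes called higher. All 7 were shared by the 3 carcinoma types. Of the 13 tested, 6 exceeded 7.05 in fewer than 3 mesenchymal tumors, and 5 of the 7 called were among these, so the filter favored this count. The list's median difference was 1.05. OCLN, occludin, a membrane protein of the tight junction strand, was at 11.08, 11.21 and 11.56 in the TCC and 9.53 in the nasal carcinoma, with the HCC at 8.75. No mesenchymal tumor reached these levels (4.24 to 7.05, median 5.06), and the difference was 5.23 ± 0.56 (limma, adjusted p = 2.17e-05). CGN, cingulin, of the junction's cytoplasmic plaque, was at 9.0 to 9.97 in the carcinomas and 4.59 to 7.05 in the mesenchymal tumors. The polarity adaptor PARD6B, the junctional adhesion molecule F11R, CLDN7, PATJ and LSR made up the rest of the 7, with differences of 3.38, 3.22, 3.12, 2.4 and 1.96. TJP1, the scaffold ZO-1, was not called, with a difference of -0.67. Without the 3 TCC, 2 genes of the list were called higher.

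Of 15 genes of adherens junctions and epithelial adhesion 11 were tested, 4 were called higher, none lower, and all 4 were shared and did not overlap between the groups. The list's median difference was 0.59. CDH1, E-cadherin, was at 13.02, 11.83 and 13.14 in the TCC and 10.42 in the nasal carcinoma, with the HCC at 10.54. The hemangiosarcoma, at 9.99, came close to the lowest carcinoma, and the other mesenchymal tumors were at 8.44 or below. CDH1 differed by 4.0 ± 0.57 (limma, adjusted p = 0.000465), and EPCAM, CXADR and NECTIN2 by 7.07, 3.36 and 1.82. The catenins CTNNA1, CTNNB1 and CTNND1, which link cadherins to the cytoskeleton and are also used by mesenchymal cadherins, had differences of 0.03, 0.64 and 0.39 and were not called.

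Of 13 desmosome genes 9 were tested, 4 were called higher and 3 of these were shared, with a list median of 1.78. DSG2, the desmoglein of simple epithelia, was at 10.53, 10.55 and 11.37 in the TCC and 10.87 in the nasal carcinoma, with the HCC at 9.24, and at 5.1 to 8.91 (median 6.66) in the mesenchymal tumors. PERP, a desmosomal tetraspan protein, differed by 3.3 ± 0.66 (limma, adjusted p = 0.00596) and overlapped between the groups through Melanoma 0, at 10.36. PKP2, a plakophilin of the desmosome plaque, was highest in the nasal carcinoma, at 12.02, then in the HCC at 10.5, and lowest in TCC 1 at 7.83, just inside the mesenchymal range of 4.26 to 7.99. JUP, plakoglobin, was called but not shared, since the nasal carcinoma lay 0.8 above the mesenchymal mean, and its call was lost without TCC 0, TCC 1 or TCC 2 (adjusted p = 0.0581 to 0.0727). DSP, desmoplakin, lay at 9.47 to 10.62 in all 5 carcinomas and was not called (difference 2.99 ± 1.07, adjusted p = 0.0936). Melanoma 0 was at 12.31 for DSP and 13.47 for DSC2, above every carcinoma in both. The mean level of the 9 desmosome genes in Melanoma 0 was 2.74 above the mesenchymal mean, against -1.57 to 1.1 in the other 10 mesenchymal tumors and 2.05 to 2.67 in the carcinomas. In that tumor the 6 tested genes of the squamous epithelium list were also high, by 3.79, against 1.0 or less in the other mesenchymal tumors. Without Melanoma 0, or without Sarcoma 1, 5 of the 9 desmosome genes were called higher.

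Of 10 keratin genes 8 were tested, and KRT8, KRT18 and KRT7 were called higher, with a list median of 1.2. KRT7, a keratin of bladder and glandular epithelia, was not shared: it was at 12.44, 11.94 and 13.04 in the TCC and 10.72 in the nasal carcinoma but at 4.4 in the HCC, below every mesenchymal tumor (4.88 to 10.03, median 5.96). Its difference of 4.1 ± 1.1 (limma, adjusted p = 0.0296) lost the call when any of the 3 TCC or the nasal carcinoma was left out (adjusted p = 0.0501 to 0.0936). The keratins of stratified epithelium KRT10, KRT13, KRT16 and KRT17 differed by 0.52, 1.11, -0.72 and 0.18 and were not called.

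The tested regulators of the epithelial program differed between the carcinoma types. Of 27 transcription and splicing regulators 19 were tested, and 9 were called higher and none lower, with a list median of 1.94, but 2 of the 9 were shared, ELF3 and ESRP1. The mean level of the 19 genes lay 2.82 to 2.96 above the mesenchymal mean in the TCC, 1.38 above it in the nasal carcinoma and at -0.16 in the HCC, within the -0.25 to 0.58 of the mesenchymal tumors. FOXA1, FOXA2, FOXA3, HNF4A and HNF4G of this list did not pass the filter and are not in that mean. A gene high in the HCC alone could not pass. ELF3, an epithelial ETS factor, was at 8.9, 7.14 and 8.31 in the TCC and 7.85 in the nasal carcinoma, with the HCC at 6.65. These lay above all mesenchymal tumors (4.11 to 6.43, median 4.35), by 2.98 ± 0.51 on average (limma, adjusted p = 0.00187).

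ESRP1, a splicing regulator of epithelial isoforms, was at 12.3, 11.21 and 11.46 in the TCC and 9.72 in the nasal carcinoma, with the HCC at 7.97, which lay inside the mesenchymal range of 4.2 to 8.81 (median 6.83). The highest mesenchymal levels of ESRP1 were in melanomas, whose mean was 7.63 against 5.48 in the other 6. Its paralog ESRP2 was at 8.74, 8.38 and 9.47 in the TCC and 7.43 in the HCC, while the nasal carcinoma, at 6.18, lay level with the highest mesenchymal tumor. ESRP1 differed by 4.08 ± 0.78 and ESRP2 by 2.76 ± 0.47 (limma, adjusted p = 0.00447 and 0.00193).

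GRHL2, a grainyhead-like factor that activates junction genes, was at 9.44, 9.04 and 9.19 in the TCC and 8.61 in the nasal carcinoma, and at 6.06 in the HCC. The mesenchymal tumors ran from 4.55 to 7.28 (median 5.7), so the HCC was within them and the other 4 carcinomas above them. GRHL1 had the same order, at 8.28 to 8.6 in those 4 carcinomas and 5.47 in the HCC, against 4.98 to 6.99. EHF, an ETS factor, was at 10.57 to 11.8 in the 4 carcinomas and at 4.43 in the HCC, below all mesenchymal tumors (4.87 to 9.62). The differences were 2.74 ± 0.5 for GRHL2, 2.1 ± 0.47 for GRHL1 and 3.49 ± 0.94 for EHF (limma, adjusted p = 0.0031, 0.0108 and 0.0302), and EHF lost its call without any 1 of the 3 TCC or without the nasal carcinoma (adjusted p = 0.0611 to 0.095).

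GATA3 and PPARG, regulators of urothelial differentiation, were highest in the TCC. GATA3 was at 12.75, 12.02 and 12.35 there and 7.31 in the nasal carcinoma, with the HCC at 6.24, against 4.25 to 8.59 (median 6.62). PPARG was at 13.3, 13.07 and 12.95 in the TCC and 8.86 in the nasal carcinoma, with the HCC at 9.83, against 6.79 to 11.74. Both lost their calls without any 1 of the TCC (GATA3, limma adjusted p = 0.0708 to 0.0765; PPARG, 0.106 to 0.119), and PPARG also without Melanoma 1, 2, 3 or 4 or Sarcoma 0 (0.0513 to 0.0587). RBM47, an RNA-binding protein, was called with a difference of 1.62 ± 0.48 (adjusted p = 0.0436) and lost the call in 11 of the 16 fits that left out 1 tumor, with adjusted p up to 0.133, reached in the fits without a TCC. It kept the call without the HCC, the nasal carcinoma, the hemangiosarcoma, the histiocytic sarcoma or Sarcoma 0. KLF5, at 13.34 to 13.96 in the TCC and 11.71 in the nasal carcinoma, with the HCC at 7.52, was not called (adjusted p = 0.0699). Without the HCC 14 of the 19 regulators were called higher, and without any 1 of the TCC, or without the melanomas, 5.

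**Figure D3:**
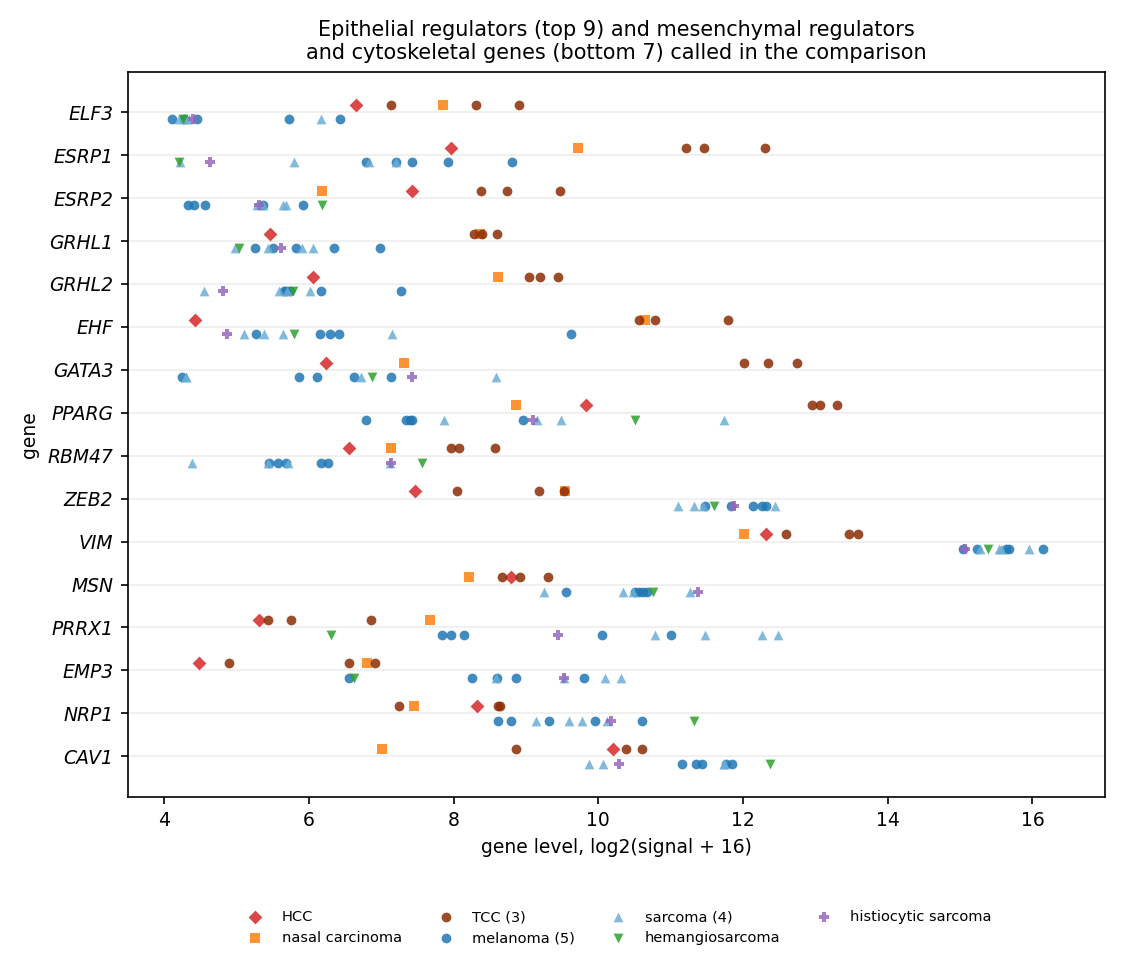
Level, as log2(signal + 16) on the horizontal axis, of the 9 epithelial regulators (top) and the 7 mesenchymal regulators and cytoskeletal genes (bottom) that were called, in each of the 16 tumors; the upper points of a row are carcinomas, the lower ones mesenchymal tumors. The HCC falls among the mesenchymal tumors for GRHL1, GRHL2 and GATA3 (5.47, 6.06 and 6.24), whereas for VIM and ZEB2 all 5 carcinomas, the HCC included, lie below all 11 mesenchymal tumors.

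Of 31 genes of apical trafficking and polarity 22 were tested, 12 were called higher and none lower, and 7 of the 12 exceeded 7.05 in fewer than 3 mesenchymal tumors. Shared genes numbered 5, and the list median was 1.46. MYO5B, a myosin that moves recycling vesicles to the apical surface, was at 8.93, 9.08 and 8.58 in the TCC and 8.05 in the nasal carcinoma, with the HCC at 9.33, with no overlap with the mesenchymal tumors at 5.35 to 7.18 (difference 2.71 ± 0.36, limma adjusted p = 0.000249). Its paralog MYO5C was at 7.86 to 8.96 in the carcinomas and 4.14 to 7.3 in the mesenchymal tumors. MAL2, a membrane protein of transcytosis, was at 11.85, 9.92 and 10.56 in the TCC and 8.69 in the nasal carcinoma, with the HCC at 7.91, and Melanoma 0, at 8.65, was the mesenchymal tumor that overlapped them. PRKCZ, the atypical protein kinase C of the polarity complex, differed by 1.63 ± 0.4 (adjusted p = 0.0184) and lost its call without TCC 2 (adjusted p = 0.0566). RAB25, a recycling GTPase, was not shared: it was at 10.28 to 11.71 in the other 4 carcinomas and 6.8 in the HCC, where the mesenchymal tumors ran from 4.21 to 9.36.

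Few of the secretory and surface genes called were shared. Of 20 genes of mucins and mucosal secretion 12 were tested and 6 called higher (list median 1.63), each of them above 7.05 in fewer than 3 mesenchymal tumors, and PIGR alone was shared. MUC1, the transmembrane mucin, was at 12.02, 11.17 and 11.89 in the TCC and 7.07 in the nasal carcinoma, with the HCC at 5.47, against 4.56 to 6.83. AGR2, which folds mucins in secretory cells, was at 8.82 to 11.21 in the TCC and 10.94 in the nasal carcinoma and at 5.19 in the HCC, against 4.81 to 6.55. Of 12 membrane proteases and inhibitors 8 were tested and 5 called (list median 2.05), with WFDC2 alone shared. Of the 5, 4 exceeded 7.05 in fewer than 3 mesenchymal tumors. Without TCC 0 or TCC 2 the 5 came to 3. WFDC2, a secreted whey acidic protein domain inhibitor, ran the other way from most, at 12.46 in the HCC and 11.07 in the nasal carcinoma but 8.29, 4.83 and 6.89 in the TCC, where TCC 1 lay within the mesenchymal range of 4.41 to 5.73. SPINT1, the inhibitor of hepatocyte growth factor activator, was at 11.59 to 12.73 in the TCC and 10.98 in the nasal carcinoma, with the HCC at 7.14, against 5.68 to 7.84. The limma differences were 3.99 for MUC1, 3.84 for AGR2, 3.81 for WFDC2 and 4.09 for SPINT1 (adjusted p = 0.00825, 0.00349, 0.0103 and 0.00125).

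Of 17 detoxification genes 10 were tested and 4 called higher, 3 of them shared (list median 1.44). ALDH1A1, a retinaldehyde and aldehyde dehydrogenase, was at 13.97, 13.47 and 13.43 in the TCC, 12.29 in the HCC and 8.74 in the nasal carcinoma, which lay inside the mesenchymal range of 4.26 to 11.28 (median 6.93; difference 5.3 ± 0.96, limma adjusted p = 0.003). MGST2, a microsomal glutathione transferase, differed by 2.86, and EPHX1, the microsomal epoxide hydrolase, by 1.44, with a call lost when the HCC was left out (adjusted p = 0.0505). Of 23 ion and solute transporters 14 were tested and 6 called (list median 0.78), with ATP1B1, the beta subunit of the sodium pump, shared (difference 2.06 ± 0.49, adjusted p = 0.0149; without TCC 0, 0.0513). Leaving out a single tumor brought the 6 down to between 1 (without TCC 0) and 5 (without the HCC), with 4 without the nasal carcinoma, Melanoma 0 or Melanoma 4 and 2 or 3 without any other tumor. Of 19 receptor kinases and ligands 10 were tested (list median 0.12), and 1 was called higher, against 3.64% of all genes. This gene, EGFR, was shared, at 9.91, 11.39 and 9.99 in the TCC and 9.88 in the nasal carcinoma, with the HCC at 9.69. The mesenchymal tumors ran from 5.96 to 10.23 for EGFR, and the call (difference 2.51 ± 0.58, adjusted p = 0.0132) was lost without TCC 1 (0.052). Of 12 genes of basement membrane attachment 9 were tested (list median 0.29), and ITGB6, the epithelial integrin subunit that activates latent TGF-beta, was called but not shared, at 8.44 to 9.67 in 4 carcinomas and 4.86 in the HCC. ITGB6 was also the 1 named gene whose probesets did not all point one way, with 5 probesets from 0 to 4.91.

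Vimentin and ZEB2 were lower in every carcinoma than in any mesenchymal tumor. VIM, vimentin, the intermediate filament protein of mesenchymal cells, was at 13.46, 12.59 and 13.59 in the TCC and 12.01 in the nasal carcinoma, with the HCC at 12.32. All 11 mesenchymal tumors were brighter, from 15.04 through a median of 15.54 to 16.14, and the difference was -2.71 ± 0.25 (limma, adjusted p = 2.79e-06). ZEB2, a zinc finger repressor of E-cadherin, was at 9.18, 8.05 and 9.53 in the TCC and 9.54 in the nasal carcinoma, with the HCC at 7.47, against 11.1 to 12.44 (median 11.84). The groups did not overlap for ZEB2 either, with a difference of -3.05 ± 0.32 (adjusted p = 2.17e-05), and both genes kept their calls in every alternative tried. The related ZEB1 differed by -1.16 ± 0.45 and was not called (adjusted p = 0.12).

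These genes belong to a list of mesenchymal transcription factors and cytoskeletal genes, of which 16 of 21 were tested, 7 were called lower, none higher, and all 7 were shared, against 3.31% of all genes called lower. The median difference of the list was -1.32. MSN, moesin, which ties actin to the membrane, was at 8.21 to 9.3 in the carcinomas and 9.25 to 11.38 in the mesenchymal tumors, and EMP3, a membrane protein of the PMP22 family, was at 4.48 to 6.92 against 6.56 to 10.32. PRRX1, a homeobox factor of connective tissue, was at 5.43, 5.76 and 6.86 in the TCC and 7.67 in the nasal carcinoma, with the HCC at 5.31, against 6.3 (the hemangiosarcoma) to 12.49 (median 10.05); its call was lost without TCC 0 (difference -3.4, limma adjusted p = 0.0521). NRP1, a co-receptor for VEGF and semaphorins, differed by -1.7 and CAV1, the coat protein of caveolae, by -1.83. CAV1 was lowest in the nasal carcinoma, at 7.01, and lost its call in 9 of the 16 fits that left out 1 tumor (adjusted p up to 0.105): without the hemangiosarcoma, Melanoma 1, 2, 3 or 4, the nasal carcinoma, STS 0, Sarcoma 0 or TCC 1. Neither CDH2, N-cadherin, nor SNAI2 was called (differences -0.96 and -1.34); CDH2 was at 11.23 in the HCC, above every mesenchymal tumor, and at 4.32 to 5.11 in the other 4 carcinomas.

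Among the 10 shared lower genes with the largest value of their smallest type difference, 4 did not overlap between the groups. FSCN1, fascin, which bundles actin, was at 7.33, 6.61 and 7.55 in the TCC and 7.06 in the nasal carcinoma, with the HCC at 5.51, against 9.0 to 11.6 (median 10.22), a difference of -3.59 ± 0.43 (limma, adjusted p = 9.33e-05). CNTLN, centlein, a centrosomal protein, was at 5.73 to 7.77 in the carcinomas and 9.13 to 10.82 in the mesenchymal tumors, and BNC2, a zinc finger protein of mesenchymal and pigment tissue, was at 5.34 to 6.37 against 7.07 to 10.26. The melanomas and the other mesenchymal tumors lay within 1 of each other in these genes, with means of 10.23 and 10.53 for FSCN1, 10 and 9.74 for CNTLN, and 9.27 and 8.55 for BNC2. TMOD2, a tropomodulin that caps actin filaments, was at 5.03 to 6.56 in the carcinomas and 6.77 to 13.52 in the mesenchymal tumors, with 4 of the 5 melanomas and Sarcoma 0 at 12.31 or above.

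The melanomas led other genes of the 10. NRN1, neuritin, a neurite-promoting surface protein, was at 4.12 to 5.08 in the carcinomas and between 10.35 and 14.13 in the melanomas, whereas Sarcoma 1, at 4.14, was as low as the carcinomas. ART3, of the ADP-ribosyltransferase family, ran from 11.33 to 13.12 in the melanomas and from 5.62 to 7.84 in the other 6 mesenchymal tumors, with the carcinomas at 4.18 to 6.27. PTGDS, the prostaglandin D2 synthase, averaged 11.34 in the melanomas and 7.72 in the other 6, and SCG3, a protein of secretory granules, 11.57 and 9.05. NEB, nebulin of the skeletal muscle thin filament, was at 13.11 in the histiocytic sarcoma and also at 9.9 to 11.36 in the melanomas. The histiocytic sarcoma, but not the melanomas, was also high in the muscle genes ACTA1 and MYL1, at 13.1 in both against at most 7.73 and 8.03 in the melanomas; the part of muscle RNA in the NEB result was not tested. Without the 5 melanomas NRN1, ART3, PTGDS, SCG3 and NEB lost their calls (limma, adjusted p = 0.0674, 0.0524, 0.149, 0.0517 and 0.146). ART3 also lost it without TCC 1 or TCC 2 (0.0709 and 0.0584), and PTGDS without TCC 0 or TCC 2 (0.063 and 0.0546). IL13RA2, a decoy receptor for interleukin 13, ran from 4.4 to 13.5 in the mesenchymal tumors and lost its call without any 1 of TCC 0, TCC 1, TCC 2, the nasal carcinoma, Melanoma 2, STS 0 or Sarcoma 0 (0.0506 to 0.09). The 178 shared lower genes had a median difference of -2.06, and the median differences of the TCC, the nasal carcinoma and the HCC were -1.81, -1.84 and -2.76. Over these 178 genes, the melanoma mean was at least 2 above the mean of the other 6 mesenchymal tumors in 9 and within 1 of it in 137.

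**Figure D4:**
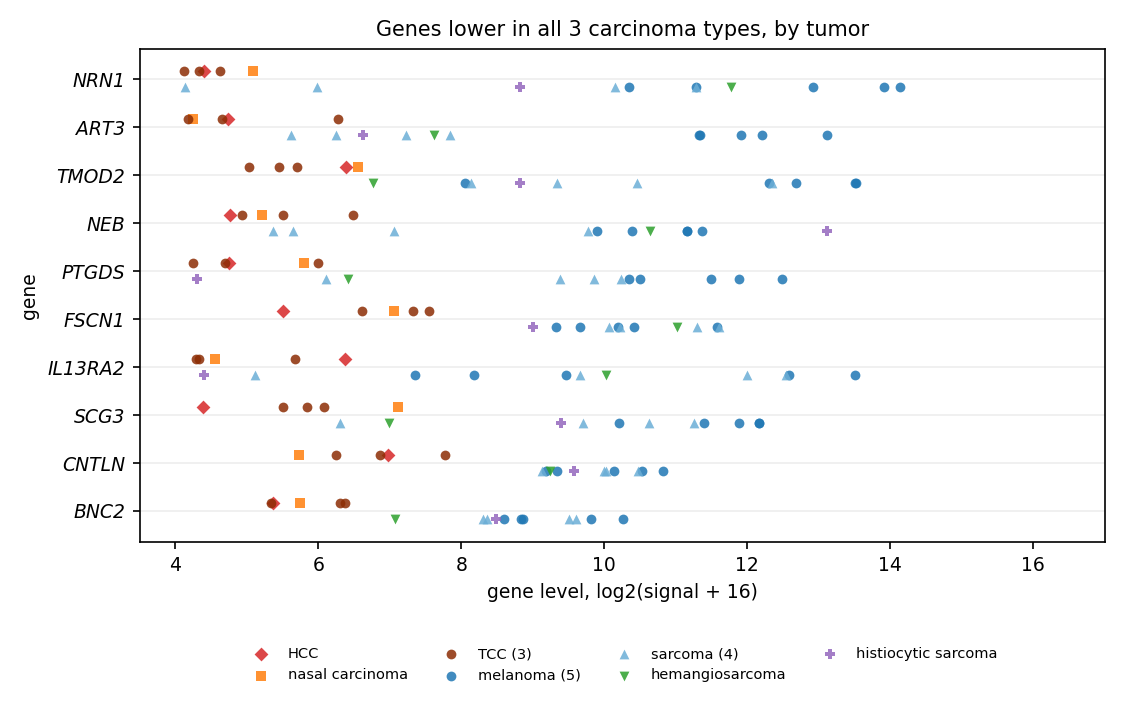
Level, as log2(signal + 16) on the horizontal axis, of the 10 shared lower genes (rows) in each of the 16 tumors; the upper points of a row are the 5 carcinomas and the lower points the 11 mesenchymal tumors. The rows FSCN1, CNTLN, BNC2 and TMOD2 show no overlap, and in ART3 the 5 melanomas, at 11.33 to 13.12, lie apart from the other 6 mesenchymal tumors.

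All 28 annotated matrix and fibroblast genes were tested, 5 of them above 7.05 in no carcinoma. Of the 28, 7 were called lower, none higher, and the list median was -1.71. SPARC, a collagen-binding matrix protein, was at 12.37, 12.54 and 13 in the TCC and 11.82 in the nasal carcinoma, with the HCC at 10.86, against 12.52 to 15.0 (median 13.9). COL1A2, COL5A2 and COL6A3, chains of the interstitial collagens, differed by -2.53, -2.26 and -2.81, FBN1, fibrillin of elastic microfibrils, by -2.64, MMP14, a membrane-bound collagenase, by -1.96 and THY1, a surface marker of fibroblasts, by -2.09. MMP14 was the 1 called gene of the list that was not shared, as the nasal carcinoma lay less than 1 below the mesenchymal mean. The matrix difference was uneven across the carcinomas: the mean of the 28 genes was -2.5 relative to the mesenchymal mean in the HCC and -0.33 in TCC 2, and among the mesenchymal tumors it ran from -1.76 in the hemangiosarcoma to 1.05. LUM, FN1 and PDGFRA differed by -0.29, -0.37 and 0.72 and were not called.

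The collagen calls were lost when single tumors were left out. The 7 matrix genes came to 3 without the HCC, the nasal carcinoma or TCC 0, to 2 without TCC 1 and to 12 without the hemangiosarcoma. Without the HCC, COL1A2, COL5A2 and COL6A3 were at limma adjusted p = 0.0936, 0.081 and 0.0916. COL5A2 was also lost without TCC 0, TCC 1 or the nasal carcinoma (0.0666 to 0.0711), COL1A2 without those or Melanoma 2, Melanoma 3 or Sarcoma 0 (0.0503 to 0.0783), and COL6A3 without those or STS 0 or Sarcoma 1 (0.0515 to 0.0905). THY1 was lost without the nasal carcinoma or TCC 1 (0.0567 and 0.105).

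Of 22 genes of the TGF-beta family 16 were tested, and BMP2 alone was called, higher, with the TCC at 11.04 to 12.66, the nasal carcinoma at 8.28 and the HCC at 8.94 (mesenchymal 5.86 to 9.67; list median -0.23); it lost the call in 11 of the 16 fits that left out 1 tumor, keeping it without the HCC, the nasal carcinoma, the hemangiosarcoma, STS 1 or Sarcoma 1. Of 17 prostaglandin pathway genes 11 were tested (list median -0.11), and PTGDS alone was called, lower. PTGS2, the inducible cyclooxygenase, was at 11.45, 9.06 and 12.56 in the TCC and 11.41 in the nasal carcinoma, with the HCC at 6.16. It was at 13.56 in Melanoma 4 and 4.88 to 9.0 in the other mesenchymal tumors, and was not called (difference 2.33 ± 1.13, limma adjusted p = 0.21). Of 28 drug targets that the study names 23 were tested (list median -0.03), and CACNA2D1, a calcium channel subunit, alone was called, lower, at 4.75 to 7.62 in the carcinomas against 7.39 to 10.93 (difference -2.96 ± 0.57, adjusted p = 0.00474); 1 of 23 is near the 3.31% of all genes called lower, and the study chose that list on these tumors, so its direction is not independent evidence.

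Markers of other cells moved with the comparison in part. All 16 macrophage and histiocyte genes were tested, 15 had a difference below 0 and 2, CSF1R and CD83, were called lower, against 3.31% of all genes (list median -1.36). Their mean level relative to the mesenchymal mean was -1.84 to -0.21 in the carcinomas and -1.62 to 1.98 in the mesenchymal tumors. CSF1R was called at limma adjusted p = 0.0456 and lost the call in 12 of the 16 fits that left out 1 tumor, all but those without Melanoma 0, Melanoma 1, Melanoma 4 or STS 1, and CD83 lost it in 5, those without TCC 0, TCC 1, TCC 2, the nasal carcinoma or Sarcoma 0 (up to 0.117 and 0.0787). Of 15 melanocyte genes 12 were tested and MITF was called lower (list median -1.84), with the levels in the carcinomas at -2.4 to -1.71 and in the mesenchymal tumors at -2.24 to 2.49; without the melanomas MITF was at adjusted p = 0.133 and without TCC 0 at 0.0613. Of 14 urothelial genes 10 were tested (list median 3.05). UPK1A, UPK1B, UPK2 and UPK3A were tested through the 3 TCC alone, since they lay below 7.05 in every other tumor of both groups. Of the 10, 7 were called higher, against 3.64% of all genes, and VSIG2 was the 1 that was shared. Of the 7, 5 exceeded 7.05 in fewer than 3 mesenchymal tumors. The 7 came to 2 without TCC 0 or TCC 1, 3 without TCC 2 and 1 without the melanomas. CD22 was the 1 called of 6 B and plasma cell genes, lower, and lost its call without the HCC, the hemangiosarcoma, the histiocytic sarcoma, Melanoma 2, Melanoma 4, TCC 1 or TCC 2 (0.0503 to 0.0928). None of 9 endothelial, 9 smooth muscle, 7 T cell, 5 neutrophil and mast cell, 7 class II, 13 interferon response, 1 erythroid or 22 proliferation genes was called, with list medians of 0.34, -0.46, -0.9, -0.44, -0.35, -0.5, 0.07 and 0.15. NEB was the 1 called of 4 skeletal muscle genes, PPARG of 6 adipocyte genes and SFN of 6 squamous genes, the last losing its call without any 1 of the TCC (0.0866 to 0.0893). AGR2 and PIGR, the 2 airway genes tested, were both called higher, and none of the 3 hepatocyte genes tested was called. At an unadjusted p below 0.05 in limma, 7 of the 76 genes of the lists with no call would count, against 2330 of all 9412 genes tested. Those lists were taken for having no call, which by itself lowers their count, so it does not show that these cell types were equal. The part of other cell types in the gene differences was not tested.

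**Figure D5:**
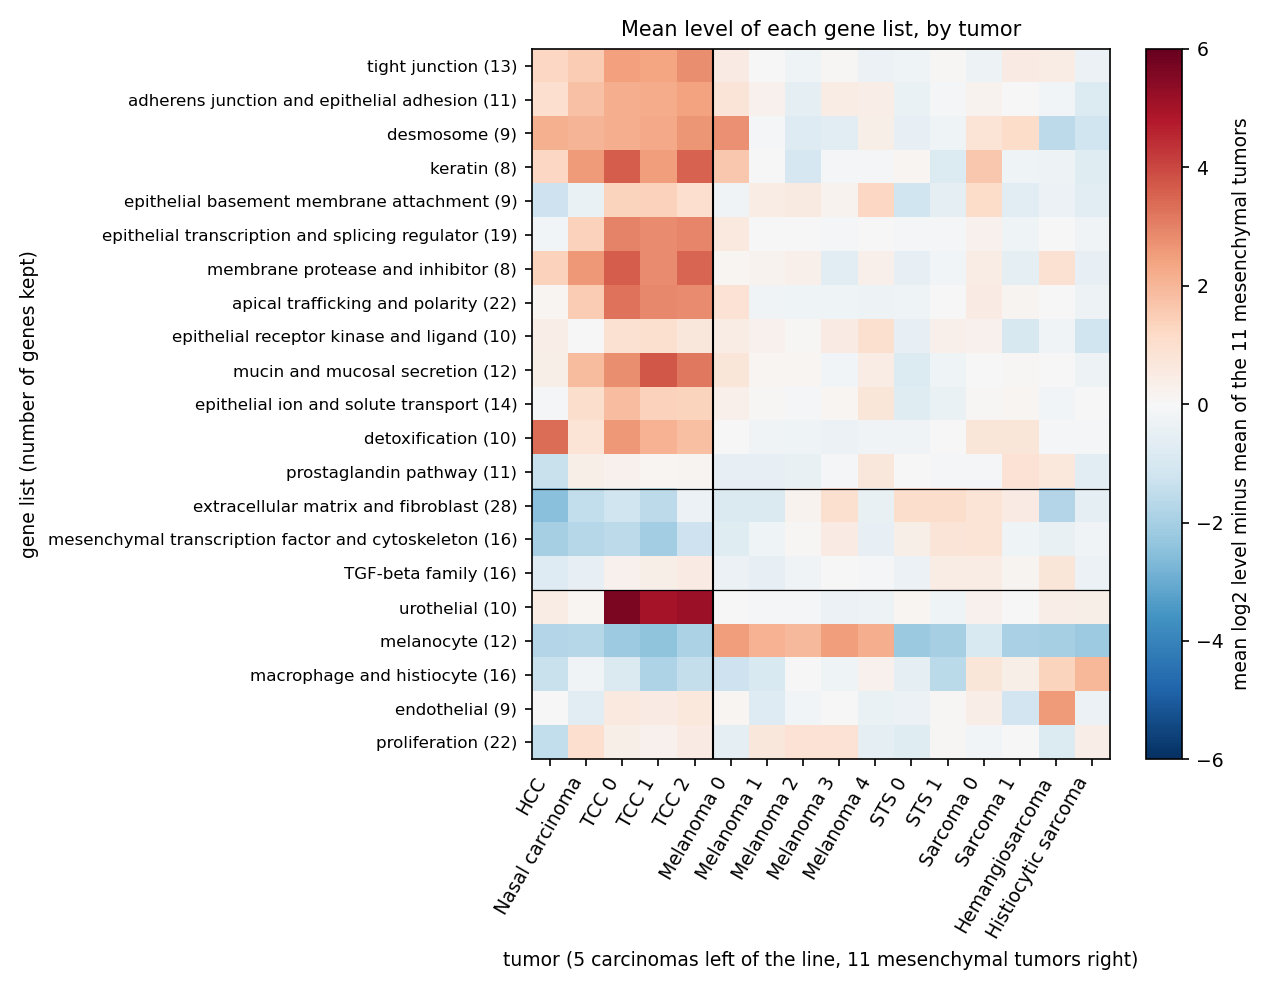
Mean level of each gene list (rows, with the number of genes tested) in each of the 16 tumors (columns), as the log2 difference from the mean of the 11 mesenchymal tumors; red is higher, blue lower, and the vertical line parts the 5 carcinomas from the mesenchymal tumors. The junction lists are red in all 5 carcinomas, the regulator list is at -0.16 in the HCC and 2.82 to 2.96 in the TCC, and Melanoma 0 stands out in the desmosome row at 2.74.

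Across the 13 epithelial lists together, 237 distinct genes were annotated, 156 were tested, and 62 of these were called higher and 1 lower, 36 of the 62 having passed the filter with fewer than 3 mesenchymal tumors above 7.05. With the filter off, 67 of the 237 were called higher and 1 lower, with a median of 1.02. All 62 lay at least 1 above the mesenchymal mean in the TCC, 38 did so in the HCC and 51 in the nasal carcinoma, and 30 were shared. Across the 3 mesenchymal lists, 60 of 71 distinct genes were tested, 14 were called lower, 13 of them shared, and 1 was called higher (median of the 71 genes -1.07). Of the 60, 12 exceeded 7.05 in no carcinoma, and with the filter off 12 of the 71 were called lower and 1 higher.

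The 7 lymphomas give another level for each gene, but the genes were chosen for carcinoma levels far from the mesenchymal ones. In the higher genes, that choice by itself favors lymphomas below the carcinomas and above the mesenchymal mean. In the lower genes it favors lymphomas above the carcinomas and below the mesenchymal mean. No share over all genes tested is given for the counts that follow, so they are descriptions and not independent evidence. Of the 127 shared higher genes, 76 were lower in all 7 lymphomas than in any carcinoma. The lymphoma mean was at least 1 above the mesenchymal mean in 14 of them and at least 1 below it in 11. Of the 178 shared lower genes, 113 had a lymphoma mean at least 1 below the mesenchymal mean, as the carcinomas had, and 24 were higher in all 7 lymphomas than in any carcinoma. KRT8 averaged 5.19 in the lymphomas, near its mesenchymal mean of 5.83. EPCAM was at 11.11 in Lymphoma 6 and 10.12 in Lymphoma 4, above the highest mesenchymal tumor at 9.82, and at 4.65 to 6.24 in the other 5. VIM averaged 14.15 and ZEB2 10.51 in the lymphomas, between the carcinoma means of 12.79 and 8.75 and the mesenchymal means of 15.5 and 11.8. B4GALT6, a lactosylceramide synthase, averaged 10.07 in the lymphomas, near the 9.52 of the carcinomas, and 6.43 in the mesenchymal tumors. No test was made against the lymphomas.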

How the data were processed

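Tumor RNA was amplified with the NuGEN Ovation Pico WTA system and read on the Affymetrix Canine Genome 2.0 array. The values deposited by the authors are MAS5 signals, 1 linear intensity for each probeset, scaled by array. Of 42924 probesets beside 111 controls, 29254 had 1 gene symbol in the platform annotation, 439 had several and 13231 were unnamed; symbols were kept as given, and only probesets with 1 symbol were used. A gene's level was the mean of log2(signal + 16) over its probesets, which gave 15115 genes. The 9412 genes with at least 3 of the 16 arrays above the median gene value, 7.05, were tested. Of the 90 genes named (87 by rule or list, and 3 sterol genes), 36 have 1 probeset.

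The 5 carcinomas and 11 mesenchymal tumors were compared with limma 3.58.1 in R 4.3.3 (lmFit, then eBayes with trend; degrees of freedom 14 residual and 3.89 prior), with Benjamini-Hochberg adjustment over all genes tested. The ratio of control probesets was tested with scipy 1.17.1. The number of arrays limits the precision, and the p-values treat tumors of different types as replicates of a category.

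The comparison, the 34 gene lists and the rule for named genes were chosen with earlier results of these data known. The rule took the 20 highest and 10 lowest shared genes by the smallest of their 3 type differences, up to 4 called members of each list by the same rank, every called member of the regulator lists, and label markers. Other list members and the sterol genes were named after their values were seen. The steps were tested on simulated data. Results were recomputed with a pseudocount of 1 or 64, after quantile normalization, with the filter off or set to 5 arrays, and with the brightest probeset, no variance trend, type means, all 23 tumors, single tumors or types left out, the title number as a block, and the adjusted p alone. Leaving out the HCC and the melanomas together, and the numbered tumors without the block, were added after seeing the data.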

Additional observations from a re-analysis of the deposited data

Results flagged for a closer look

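Among the 30 genes ranked first by their shared differences, single tumors lay far from the rest of their group in 8 of 90 gene and group pairs (8.9%), where chance marks about 1 in 20 groups; the 30 genes were ranked on these same values. Among the carcinomas, the HCC was low for TC2N, at 9.27 against 10.64 to 11.18, the nasal carcinoma was low for RASSF6, at 7.28 against 9.76 to 10.34, and TCC 0 was high for ART3, at 6.27 against 4.18 to 4.73. Among the melanomas, Melanoma 4 was low for EPB41L5, at 4.18 against 7.05 to 7.83, Melanoma 1 was low for LURAP1L, at 6.31 against 7.18 to 7.29, and Melanoma 0 was low for TMOD2, at 8.05 against 12.31 to 13.52. Melanoma 3 was high for CAMSAP3, at 7.02 against 4.18 to 4.73. Among the 4 sarcomas, Sarcoma 0 was high for CP, at 9.38 against 5.84 to 6.21.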

How the results depend on the processing

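Among the 90 named genes no difference changed sign under any of the 32 alternatives. All 90 were called in the main fit and most alternatives reuse the same tumors, so a change of sign was unlikely from the start. Genes not named were not checked for sign. Of the 90 named genes, 3 of them chosen after their values were seen, 60 kept their call whichever tumor was left out, 17 of them under every alternative. Without the 3 TCC the genes called higher came to 83 and those called lower to 89, the shared ones to 75 and 81, and 67 of the 90 named genes lost their call. Without the 5 melanomas the counts were 189 and 198. Leaving out 1 tumor gave 205 to 396 genes higher and 183 to 342 lower, 108 to 253 shared higher and 119 to 278 shared lower; with the HCC or the nasal carcinoma left out, shared means over the types that remain (253 and 218 higher). Without the HCC and the melanomas 236 were shared higher. A pseudocount of 64 gave 77 shared higher genes and type means gave 545 lower. Quantile normalization ended no named gene's call. The stricter filter ended none among the named genes that passed it, but named genes such as UPK1A and ELF3 did not pass and were not tested there. With that filter 266 genes were called higher and 108 were shared higher.

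The title numbers give no pairing: over 13 pairs of same-numbered tumors the deviations correlated at -0.084 to 0.045. With the number as a replicate block, over the numbered tumors, 328 genes were higher and 124 lower, 327 of them shared higher, and 28 named genes lost their call. The same tumors without the block gave 514 higher and 274 lower, all counted as shared since TCC is then the only carcinoma type.

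The limits are 5 carcinomas of which 3 are TCC, 4 tumor types with 1 tumor each, breed (TCC) and site (TCC and melanoma) that cannot be told apart from type, and probesets near the floor, whose differences are understated.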

Other observations

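Sterol synthesis genes were outside the lists and were chosen after their values were seen. MSMO1, a methylsterol oxidase, was at 9.69, 10.08 and 10.87 in the TCC and 10.17 in the nasal carcinoma, with the HCC at 11.48, and at 7.4 to 9.69 (median 8.19) in the mesenchymal tumors (difference 2.23 ± 0.35, limma adjusted p = 0.00107). HSD17B7, a sterol and steroid reductase, was at 9.19 to 10.16 in the carcinomas and 7.09 to 8.65 in the mesenchymal tumors (1.8 ± 0.28, adjusted p = 0.000983). SQLE, squalene epoxidase, was highest in the HCC and TCC 2, at 12.05 and 11.93, and overlapped between the groups, with TCC 0 at 9.88 and the highest mesenchymal tumor at 10.1 (2.5 ± 0.51, adjusted p = 0.00605). All 3 were shared by the carcinoma types and kept their calls whichever tumor was left out. With the title number as a replicate block, over the numbered tumors, all 3 lost their calls (SQLE, MSMO1 and HSD17B7 at limma adjusted p = 0.126, 0.0617 and 0.0559), and SQLE also lost its call without the 3 TCC (0.0728).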
